A study of Mus musculus with 7 samples.

Results

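Ligand-gated neurotransmitter receptors are the channels with which retinal neurons read glutamate, glycine, GABA and acetylcholine, and their subunit genes were followed here in retinas from SCA7 knock-in and WT mice. The members were the protein-coding genes for AMPA (Gria), kainate (Grik), NMDA (Grin), glycine (Glra, Glrb), GABA-A (Gabra, Gabrb, Gabrg, Gabrd, Gabrr) and nicotinic alpha and beta (Chrna, Chrnb) subunits, taken by symbol. The rule found 50 genes, of 21819 protein-coding genes and 52550 genes in the table, and 47 of the 50 passed the expression filter and were tested. The other 3 were at or near 0. Chrna9, a subunit known from cochlear hair cells, had 0 counts in every library, Gabra6, known from cerebellar granule cells, had 0 to 1 counts, and Chrna10 had 0 to 5 counts.

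Total RNA was sequenced from C57BL/6J mice aged 12.5 weeks, 4 WT and 3 SCA7_KI_homo animals, with 2 retinas of a single mouse in each library. The SCA7 animals carry the polyglutamine-expanded Atxn7 allele (140Q) on both chromosomes, expressed from the gene's own promoter in every cell that uses it, so the mutation is not limited to any retinal cell type. The study used both sexes, the sex of each library is not given, and Xist stood at 0.300 CPM or less in all 7 libraries. Atxn7 itself was at 33.7 to 43.6 CPM in WT and 34.2 to 39.9 CPM in SCA7 (log2 fold change -0.062, SE 0.088, adjusted p = 0.636), which as a gene total does not tell the alleles apart. The 10 rod markers summed to at least 19106 CPM in every library, so the tissue carried the photoreceptor transcripts that its label calls for.

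In the retina, rods and cones release glutamate onto bipolar and horizontal cells, and bipolar cells pass it on to amacrine and ganglion cells. OFF bipolar cells, horizontal, amacrine and ganglion cells read glutamate with AMPA and kainate receptors, while ON bipolar cells use the metabotropic receptor encoded by Grm6. Amacrine cells answer with GABA, glycine or acetylcholine, and the GABA receptors built of rho subunits are known for the axon terminals of bipolar cells. In bulk tissue, a lower value can come from fewer cells of a type or from less RNA per cell, and these cannot be told apart here.

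Most receptor subunit genes were measured at close levels in the 2 genotypes, with a few marked exceptions in the kainate, GABA-A and nicotinic families. With the study's thresholds (adjusted p under 0.05 and FC below 0.7 or above 1.3), 1 of the 47 tested members was downregulated, against 7.91% of all genes tested and 6.13% of the protein-coding ones, and 4 were upregulated, against 7.47% and 8.81%. The downregulated gene was Chrna6 and the upregulated genes were Grik3, Chrnb4, Chrna5 and Grik4. Without the FC threshold, 8 members were lower (14.2% of all genes tested and 13.6% of the protein-coding ones) and 5 were higher (14.2% and 17.5%). Called members made up 27.7% of those tested, beside 28.3% of all genes tested and 31.1% of the protein-coding ones, so their number was close to the background. The lower members were Chrna6, Gabrr1, Gabrd, Gabra4, Gabrr2, Grin3a, Chrnb3 and Grik1, and the higher members were the 4 upregulated genes and Chrnb2. All SCA7 libraries lay below all WT libraries for 11 members (18.2% of all genes tested and 17.0% of the protein-coding ones) and above them for 6 (19.3% and 23.7%), and the groups overlapped for 30. The median log2 fold change was 0.0040 over the tested members and -0.019 over all genes tested.

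**Figure D1:**
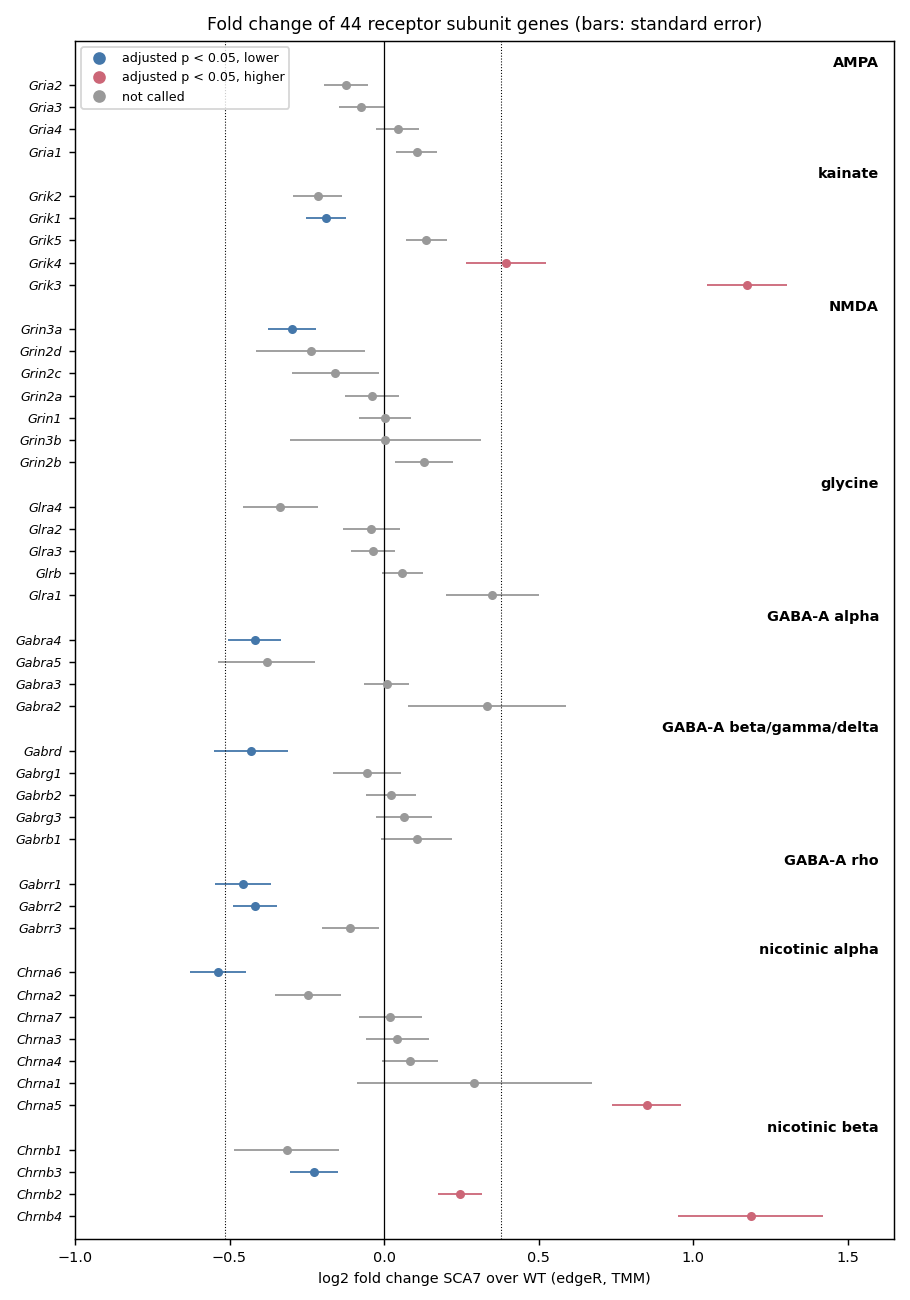
Log2 fold change (SCA7 over WT) of 44 tested members on the horizontal axis, grouped by receptor family, with bars of 1 standard error and dotted lines at FC 0.7 and 1.3. Most points lie near 0, Grik3, Chrna5 and Chrnb4 stand to the right at 1.17, 0.85 and 1.19, and the called genes Chrna6, Gabrr1, Gabrd, Gabra4 and Gabrr2 stand to the left at -0.54, -0.46, -0.43, -0.42 and -0.42.

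The scaling of the libraries sets where 0 lies. Scaling by total counts instead of TMM raised the median of all genes by 0.19 on the log2 scale, and the members then split into 4 lower and 15 higher, beside 7.43% and 36.2% of all genes tested. Under that scaling, Chrna6, Gabrr1, Gabrr2 and Gabra4 were the 4 still called lower, Grik1 turned to 0.0018, and Grik3, Chrnb4, Chrna5, Grik4 and Chrnb2 were all still called higher. Unless a setting is named, fold changes and CPM, a gene's counts relative to the scaled library, are given with TMM. RPK was scaled with DESeq2 size factors, and the ratios between subunits used counts.

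Levels of different genes were compared as RPK, normalized counts per kilobase of the median transcript, since counts alone favour long genes. In WT retina the member with the highest level of its family was Gria2 for AMPA at 1991 ± 147 RPK (mean ± SD, n = 4), Grik1 for kainate at 1833 ± 123 RPK and Grin2b for NMDA at 1615 ± 206 RPK. Glrb led the glycine receptors at 4309 ± 318 RPK. Gabrr1 led the rho subunits at 3017 ± 390.0 RPK, although Gabrr2 at 2734 ± 229.5 RPK lay within their spread. Chrna6 led the nicotinic alpha subunits at 3698 ± 429 RPK and Chrnb2 the beta subunits at 802 ± 69.7 RPK. The length used moves such an order, because the median transcript of some genes is short: it is 0.703 kb for Grin2b, whose exons together span 24.8 kb. Per kilobase of all exons, Gria4 at 974 ± 78.4 RPK stood above Gria2 at 457 ± 33.8 RPK and Grin1 at 285 ± 26.1 RPK above Grin2b at 45.7 ± 5.82 RPK, while the other 7 families kept the same leading gene.

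**Figure D2:**
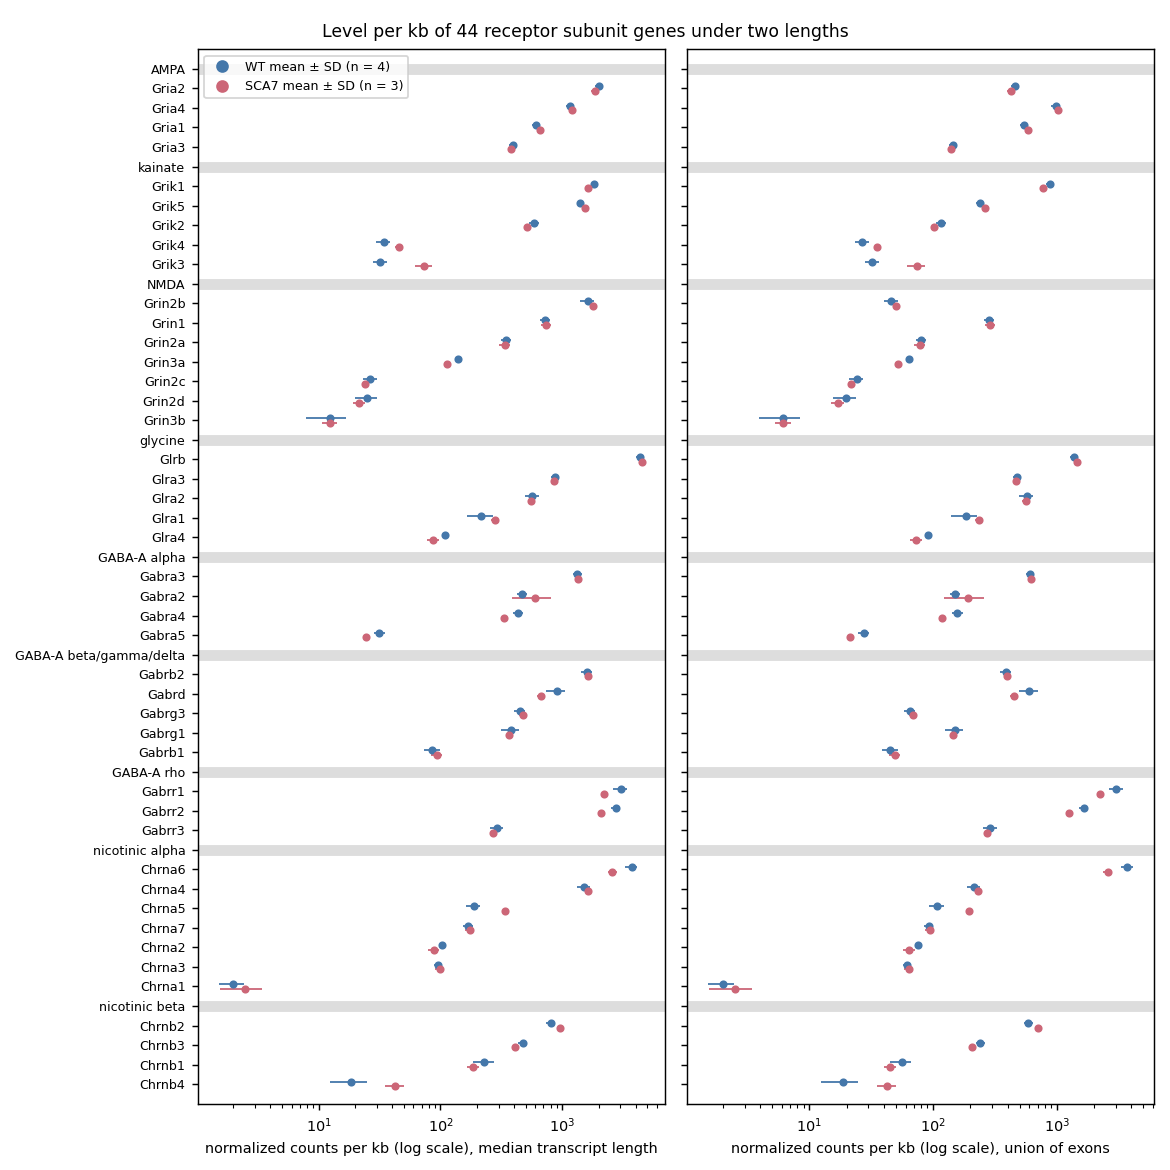
Normalized counts per kb (log axis) of 44 tested members in WT (blue, n = 4) and SCA7 (red, n = 3), as mean with SD bars, per median transcript on the left and per union of exons on the right. The members drawn span from 1.99 RPK for Chrna1 to 4309 RPK for Glrb in WT on the left, and for most of them the red and blue points lie side by side.

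Among the AMPA receptor genes, which form the main fast glutamate channels, 0 of 4 were called by edgeR, also at an unadjusted p under 0.05, and 0 by DESeq2 or limma-voom. Over all genes tested, edgeR called 28.3% in either direction. Gria2, whose subunit makes the channel nearly impermeable to calcium, was at 105, 100.1, 94.6 and 113 CPM in WT replicates 1 to 4 and 102, 90.2 and 91.7 CPM in SCA7 replicates 1 to 3. Those values overlapped, with a log2 fold change -0.12 (SE 0.072, adjusted p = 0.228). Gria1 (0.11), Gria3 (-0.073) and Gria4 (0.043) likewise had adjusted p-values of 0.262 or more, with standard errors of 0.066 to 0.073.

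The kainate receptor genes held the strongest increase of all members tested apart from Chrnb4. Grik3, one of the subunits that can form a channel alone, was at 3.81, 4.36, 3.67 and 4.86 CPM in WT replicates 1 to 4 and 11.1, 8.01 and 9.29 CPM in SCA7 replicates 1 to 3. Every SCA7 value was well above every WT value, a 2.26-fold difference with a log2 fold change 1.17 (SE 0.13, adjusted p = 3.84e-05). The gene lies at chr4:125490700-125714173 on the + strand (GRCm38), and its level in WT retina was low, at 32.1 ± 4.24 RPK. Grik4, whose subunit joins other kainate subunits and raises their affinity for glutamate, was at 1.93, 2.18, 2.53 and 2.57 CPM in WT replicates 1 to 4 and 2.89, 2.96 and 3.21 CPM in SCA7 replicates 1 to 3. Its groups did not overlap either, at log2 fold change 0.39 (SE 0.13, adjusted p = 0.0411), but it was close to both thresholds, and the call was lost in 5 of the 7 fits that left out a library (WT replicate 1 or 2 or any SCA7 replicate, adjusted p up to 0.149).

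The most abundant kainate gene was lower in SCA7. Grik1, the kainate subunit known for OFF cone bipolar cells, was at 78.0, 85.5, 86.7 and 91.8 CPM in WT replicates 1 to 4 and 78.1, 72.6 and 74.4 CPM in SCA7 replicates 1 to 3. SCA7 replicate 1 lay just above the lowest WT library, and the log2 fold change -0.19 (SE 0.065, adjusted p = 0.0476) only just passed the threshold and was lost in 5 of 7 fits without a library (WT replicate 2 or 4 or any SCA7 replicate, adjusted p up to 0.183). DESeq2 called Grik1 too, but limma-voom did not, nor did edgeR without the expression filter or with the replicate number as a block. Grik2 (20.3 to 24.6 CPM in WT and 18.7 to 19.5 CPM in SCA7) did not pass, at log2 fold change -0.21 (SE 0.079, adjusted p = 0.0627), and neither did Grik5 (16.4 to 18.7 CPM in WT and 19.4 to 19.7 CPM in SCA7), at log2 fold change 0.14 (SE 0.066, adjusted p = 0.147), although neither overlapped between groups. As a share of the family's summed RPK, Grik3 went from 0.827% ± 0.088 (SD, n = 4) in WT to 1.93% ± 0.28 (SD, n = 3) in SCA7 and Grik1 from 47.2% ± 2.0 to 42.7% ± 0.85. Per union of exons, the share went from 2.49% ± 0.24 to 5.86% ± 0.77 for Grik3 and from 68.0% ± 1.5 to 62.2% ± 0.38 for Grik1.

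Of the NMDA receptor genes, which need glutamate and a co-agonist to open, 1 of 7 was called, beside 28.3% of all genes tested in either direction. Grin3a, whose subunit lowers calcium entry through the receptor, was at 10.5, 11.5, 11.9 and 11.5 CPM in WT replicates 1 to 4 and 9.26, 8.77 and 9.68 CPM in SCA7 replicates 1 to 3. All SCA7 values were below all WT values, at log2 fold change -0.30 (SE 0.078, adjusted p = 0.0139), and the call was lost without SCA7 replicate 1 or 2 (adjusted p up to 0.0803). Grin1, the subunit that every NMDA receptor holds, was at 35.4, 38.8, 43.1 and 42.9 CPM in WT replicates 1 to 4 and 41.9, 36.0 and 42.5 CPM in SCA7 replicates 1 to 3, and these values covered the same range, at log2 fold change 0.0031 (SE 0.084, adjusted p = 0.983). Grin2b was at 17.1, 16.7, 13.5 and 18.4 CPM in WT replicates 1 to 4 and 18.6, 17.2 and 18.2 CPM in SCA7 replicates 1 to 3, also overlapping, at log2 fold change 0.13 (SE 0.094, adjusted p = 0.335). Grin2a (-0.04), Grin2c (-0.16) and Grin2d (-0.24) did not pass, and Grin3b was measured on only 12 to 33 counts per library. On the opposite strand, Gm45441 (253 to 378 counts in WT, log2 fold change -1.31) overlaps 9.66% of the Grin2d exon bases. Tmem259 (2876 to 4532 counts in WT) likewise overlaps 32.1% of those of Grin3b. The strand setting of the counting is not given in the sources used here, so these reads may not be fully separated.

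Of the glycine receptor genes, 0 of 5 were called by edgeR, DESeq2 or limma-voom, and at an unadjusted p under 0.05 in edgeR 1 was lower and 1 higher. Over all genes tested, edgeR called 28.3% in either direction after adjustment. Glrb, the beta subunit that ties the receptor to gephyrin at inhibitory synapses, was at 83.7, 91.6, 100.3 and 93.9 CPM in WT replicates 1 to 4 and 97.5, 93.1 and 98.1 CPM in SCA7 replicates 1 to 3. The ranges overlapped, at log2 fold change 0.059 (SE 0.067, adjusted p = 0.545). Glra4 was below WT in every SCA7 library (2.56 to 2.76 CPM in WT and 1.92 to 2.36 CPM in SCA7) without passing, at log2 fold change -0.34 (SE 0.12, adjusted p = 0.0586). The widest difference upward was that of Glra1 (4.93 to 8.44 CPM in WT and 7.78 to 8.85 CPM in SCA7), at log2 fold change 0.35 (SE 0.15, adjusted p = 0.106). Without WT replicate 4 it passed, at 0.51 (adjusted p = 0.00459), and without WT replicate 3 it was 0.25 (adjusted p = 0.154).

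Of the GABA-A receptor genes outside the rho group, 1 of the 5 tested alpha genes and 1 of the 7 beta, gamma and delta genes was called. Each was lower in SCA7, as were 14.2% of all genes tested. Gabrb2, a beta subunit, which helps to form the site that binds GABA, was at 30.3, 37.2, 35.2 and 38.8 CPM in WT replicates 1 to 4 and 37.3, 34.0 and 36.5 CPM in SCA7 replicates 1 to 3. Its groups overlapped, at log2 fold change 0.022 (SE 0.081, adjusted p = 0.867). Gabra3, an alpha subunit, had overlapping groups as well (30.8 to 37.5 CPM in WT and 32.9 to 36.6 CPM in SCA7), at log2 fold change 0.0078 (SE 0.074, adjusted p = 0.949). Gabrg1 (-0.056), Gabrg3 (0.064) and Gabrb1 (0.11) did not pass either.

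The called genes were a pair whose subunits can join in receptors outside synapses. Gabra4 was at 12.9, 14.2, 15.6 and 12.7 CPM in WT replicates 1 to 4 and 10.1, 10.3 and 10.7 CPM in SCA7 replicates 1 to 3. Every SCA7 library was below every WT library, at log2 fold change -0.42 (SE 0.085, adjusted p = 0.00333), and the call held in all 7 fits without a library. Gabrd, the delta subunit, was at 23.1, 25.2, 30.9 and 20.5 CPM in WT replicates 1 to 4 and 17.1, 18.9 and 19.4 CPM in SCA7 replicates 1 to 3. Its groups did not overlap, with WT replicate 3 the highest, at log2 fold change -0.43 (SE 0.12, adjusted p = 0.0196), and the call was lost without SCA7 replicate 1 or 2 (adjusted p up to 0.0898). Gabra5 was likewise below WT in every SCA7 library (1.02 to 1.298 CPM in WT and 0.861 to 0.960 CPM in SCA7), but did not pass, at log2 fold change -0.38 (SE 0.16, adjusted p = 0.0902). Gabra4 overlaps the exons of its neighbour Gabrb1 by 46 bases on the opposite strand, which is 0.756% of its exon bases.

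Gabra2 was singled out after its values were seen, because its SCA7 libraries disagreed. It was at 16.0, 18.5, 14.98 and 16.7 CPM in WT replicates 1 to 4 and 25.9, 24.5 and 12.3 CPM in SCA7 replicates 1 to 3. SCA7 replicates 1 and 2 lay above all WT libraries and replicate 3 below all of them, so that the log2 fold change 0.33 (SE 0.25, adjusted p = 0.385) carried a wide error. Without SCA7 replicate 3 the value was 0.61 with an adjusted p of 0.000911. Its neighbours on chromosome 5 did not share this split: Gabrg1 was at 16.1, 15.9 and 17.3 CPM, Gabra4 at 10.1, 10.3 and 10.7 CPM and Gabrb1 at 10.3, 8.68 and 10.3 CPM in the same 3 libraries. The source of the split was not tested.

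**Figure D3:**
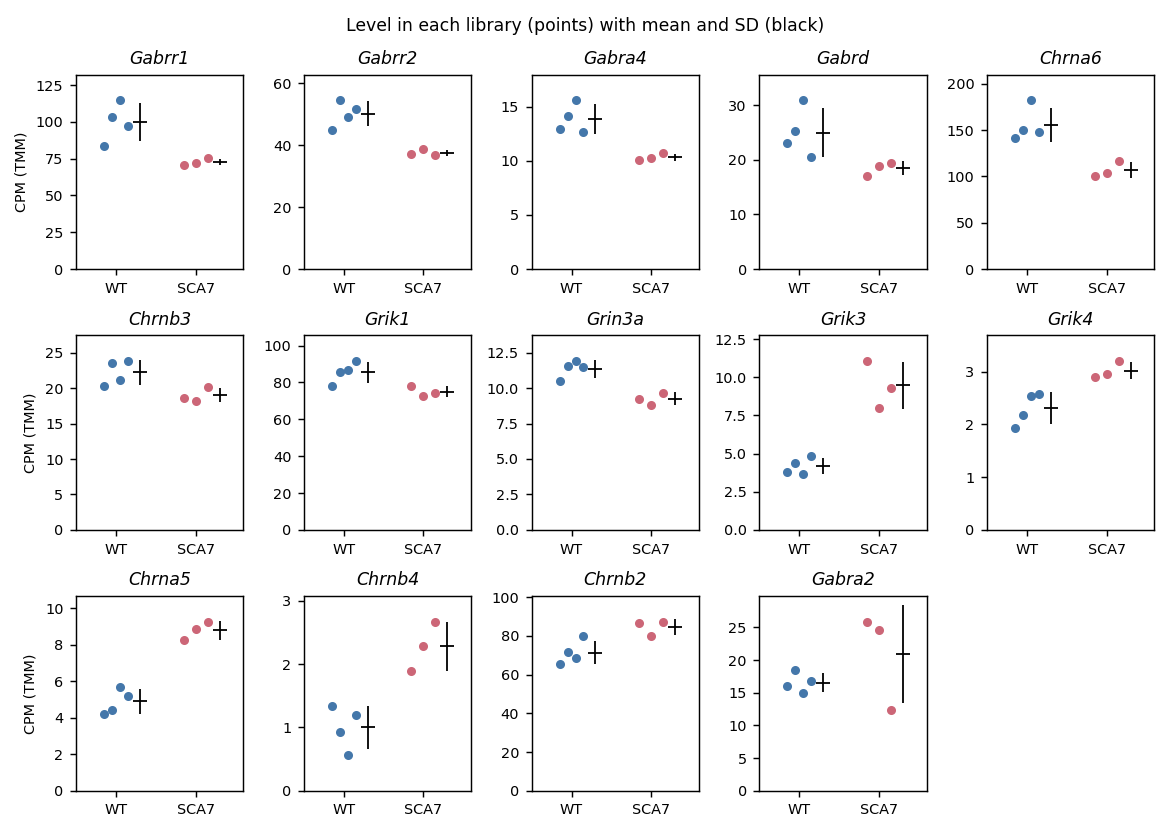
CPM (TMM) in each WT (blue, n = 4) and SCA7 (red, n = 3) library for the 13 called members and for Gabra2, with the mean and SD in black and axes from 0. The SCA7 points of Grik3, Chrna5 and Chrnb4 lie clear of the WT points, and those of Gabra2 fall on both sides at 25.9, 24.5 and 12.3 CPM.

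The rho subunits had the lowest family median, -0.42 on the log2 scale, with 2 of 3 members called lower, beside 14.2% of all genes tested. Gabrr1 was at 83.9, 104, 115 and 97.2 CPM in WT replicates 1 to 4 and 70.8, 72.2 and 75.1 CPM in SCA7 replicates 1 to 3. Gabrr2 was at 44.99, 54.6, 49.2 and 51.8 CPM in WT replicates 1 to 4 and 37.1, 38.7 and 36.8 CPM in SCA7 replicates 1 to 3. For both genes the highest SCA7 library was below the lowest WT library (as for 18.2% of all genes tested), with a log2 fold change -0.46 (SE 0.09, adjusted p = 0.00277) for Gabrr1 and log2 fold change -0.42 (SE 0.07, adjusted p = 0.000902) for Gabrr2, and both calls held in all 7 fits without a library. Gabrr3, at 290.0 ± 35.3 RPK in WT the least abundant of the family, had overlapping groups (15.8 to 21.0 CPM in WT and 15.8 to 17.4 CPM in SCA7) and was not called, at log2 fold change -0.11 (SE 0.092, adjusted p = 0.405). Whether Gabrr3 differed from the other rho genes was not tested. The summed RPK of the family ranged from 5235 to 6473 over the WT libraries and from 4479.7 to 4619.9 over the SCA7 libraries, a mean change of -24.6%.

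Gabrr2 (chr4:33062999-33095865) and Gabrr1 (chr4:33132521-33163588) are neighbours on the + strand, 36.7 kb apart, and the sequences before their starts are shown because they moved together. The windows are 300 bases from the RefSeq table (GRCm38.p6), 250 before and 50 after the start. Capitals mark matches, on either strand, to TAATCC (the core bound by CRX), TGCTGA (an NRL half-site) or TTCNNNGAA (the STAT motif), none of which overlapped another. 
Gabrr2, chr4:33062862-33063161 (+ strand): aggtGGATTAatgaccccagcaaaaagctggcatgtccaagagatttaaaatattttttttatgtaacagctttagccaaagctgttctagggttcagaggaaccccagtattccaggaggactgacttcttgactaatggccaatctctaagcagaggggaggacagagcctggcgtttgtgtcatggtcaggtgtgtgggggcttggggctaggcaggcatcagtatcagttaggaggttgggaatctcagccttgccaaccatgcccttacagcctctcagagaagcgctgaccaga
Gabrr1, chr4:33132306-33132605 (+ strand): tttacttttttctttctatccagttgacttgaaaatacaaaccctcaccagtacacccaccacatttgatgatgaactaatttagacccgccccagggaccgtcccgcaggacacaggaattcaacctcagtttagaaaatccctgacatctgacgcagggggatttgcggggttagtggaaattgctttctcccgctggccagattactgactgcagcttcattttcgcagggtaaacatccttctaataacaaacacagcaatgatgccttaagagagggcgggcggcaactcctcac
The CRX letters were found once in the Gabrr2 window and not in that of Gabrr1, and 7.06% of all 32851 windows in the table hold them. A match describes these letters and is not evidence of binding. The windows had a GC content of 49.3% and 47.3%, beside a median of 52.7% over all windows.

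The nicotinic acetylcholine receptor genes held both the sole downregulated member and the largest increases besides Grik3. Chrna6, a subunit known from ganglion cells and from dopamine neurons of the brain, was at 142, 149.8, 183 and 148 CPM in WT replicates 1 to 4 and 101, 104 and 117 CPM in SCA7 replicates 1 to 3. Each SCA7 library was below each WT library and WT replicate 3 was the highest, a 0.69-fold level with a log2 fold change -0.54 (SE 0.091, adjusted p = 0.000954). Its adjusted p passed in all 7 fits without a library, but its FC was at the limit of 0.7 and no longer passed it without WT replicate 3 (log2 fold change -0.45) or without SCA7 replicate 1 or 2 (-0.49 and -0.51). Chrnb3, a common partner of Chrna6 that lies 3.48 kb from it on chromosome 8, was at 20.3, 23.6, 21.1 and 23.9 CPM in WT replicates 1 to 4 and 18.6, 18.2 and 20.1 CPM in SCA7 replicates 1 to 3. Its groups did not overlap, at log2 fold change -0.23 (SE 0.076, adjusted p = 0.0436), and the call was lost in 5 of 7 fits (without WT replicate 2 or 4 or any SCA7 replicate, adjusted p up to 0.165), and also without the expression filter and with the replicate block. The summed RPK of the nicotinic alpha family was 15.2% lower per median transcript and 24.2% lower per union of exons, as Chrna6 made up 64.1% ± 3.8 (SD, n = 4) and 86.9% ± 1.5 of it in WT.

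Chrna5 and Chrnb4 rose from low levels in WT. Chrna5, an accessory subunit that cannot form a channel alone, was at 4.23, 4.44, 5.68 and 5.21 CPM in WT replicates 1 to 4 and 8.24, 8.88 and 9.27 CPM in SCA7 replicates 1 to 3. All SCA7 libraries were well above all WT libraries, a 1.80-fold difference with a log2 fold change 0.85 (SE 0.11, adjusted p = 0.000147). Chrnb4, which pairs with Chrna3 in autonomic ganglia, was at 1.33, 0.922, 0.562 and 1.19 CPM in WT replicates 1 to 4 and 1.88, 2.28 and 2.67 CPM in SCA7 replicates 1 to 3, from 30 to 78 counts in WT and 116 to 275 counts in SCA7. Its 2.27-fold difference had a log2 fold change 1.19 (SE 0.23, adjusted p = 0.00286), and both calls held in all 7 fits without a library. Chrna3, which lies between them, was at 4.30, 4.99, 4.52 and 4.92 CPM in WT replicates 1 to 4 and 4.74, 4.49 and 5.25 CPM in SCA7 replicates 1 to 3, and its overlapping groups gave a log2 fold change 0.043 (SE 0.10, adjusted p = 0.788).

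These 3 genes stand within a short stretch of chromosome 9, Chrna5 on the + strand (chr9:54980880-55007779), and Chrna3 (chr9:55010111-55026562) and Chrnb4 (chr9:55028154-55048779) on the - strand, with gaps of 2.33 and 1.59 kb. Their promoter windows, with the same motifs in capitals, are shown because the outer genes rose and the inner gene did not pass the test. Chrna5 has a pair of starts in the table. 
Chrna5, chr9:54980630-54980929 (+ strand): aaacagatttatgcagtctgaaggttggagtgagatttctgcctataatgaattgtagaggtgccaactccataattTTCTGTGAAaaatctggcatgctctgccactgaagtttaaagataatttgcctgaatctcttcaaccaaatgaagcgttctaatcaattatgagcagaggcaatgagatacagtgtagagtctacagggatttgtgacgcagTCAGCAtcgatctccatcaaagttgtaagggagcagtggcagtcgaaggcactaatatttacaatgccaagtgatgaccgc
Chrna5, chr9:54981238-54981537 (+ strand): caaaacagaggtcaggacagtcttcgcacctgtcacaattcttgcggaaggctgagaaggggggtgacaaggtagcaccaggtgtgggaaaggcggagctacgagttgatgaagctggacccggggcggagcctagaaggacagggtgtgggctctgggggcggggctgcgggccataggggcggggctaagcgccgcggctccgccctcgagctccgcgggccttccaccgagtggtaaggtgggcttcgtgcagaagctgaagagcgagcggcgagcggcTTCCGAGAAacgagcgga
Chrna3, chr9:55026513-55026812 (- strand): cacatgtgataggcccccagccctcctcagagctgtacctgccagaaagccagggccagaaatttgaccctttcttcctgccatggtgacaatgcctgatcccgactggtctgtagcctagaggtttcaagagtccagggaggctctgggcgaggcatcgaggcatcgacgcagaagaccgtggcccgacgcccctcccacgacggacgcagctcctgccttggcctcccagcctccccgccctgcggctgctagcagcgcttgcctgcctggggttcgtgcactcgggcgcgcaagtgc
Chrnb4, chr9:55048495-55048794 (- strand): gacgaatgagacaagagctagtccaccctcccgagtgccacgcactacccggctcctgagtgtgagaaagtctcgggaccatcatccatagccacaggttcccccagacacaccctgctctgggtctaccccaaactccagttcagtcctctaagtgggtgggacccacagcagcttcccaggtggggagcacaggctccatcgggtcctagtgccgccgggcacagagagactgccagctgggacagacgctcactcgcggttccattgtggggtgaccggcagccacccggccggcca
Both Chrna5 windows held a STAT match, and the first also an NRL half-site, whereas the Chrna3 and Chrnb4 windows held none of the 3 motifs. The STAT letters occur in 8.30% of all windows and the NRL half-site in 19.5%. Of the 36 members with a window in the table, 4 held the STAT letters, 7 the NRL half-site and 2 the CRX letters in any of their windows. Counted by window, as in the shares over all windows, 12.2% of the 41 member windows held the STAT letters. The NRL half-site was in 17.1% of them and the CRX letters in 4.88%, beside 7.06% of all windows for CRX.

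The promoter window of Grik3 is shown for contrast, as the member with the lowest adjusted p among those called. It is rich in G and C, at 82.0% with 50 CpG dinucleotides, a GC content above that of 99.5% of all windows, and held none of the 3 motifs. 
Grik3, chr4:125490446-125490745 (+ strand): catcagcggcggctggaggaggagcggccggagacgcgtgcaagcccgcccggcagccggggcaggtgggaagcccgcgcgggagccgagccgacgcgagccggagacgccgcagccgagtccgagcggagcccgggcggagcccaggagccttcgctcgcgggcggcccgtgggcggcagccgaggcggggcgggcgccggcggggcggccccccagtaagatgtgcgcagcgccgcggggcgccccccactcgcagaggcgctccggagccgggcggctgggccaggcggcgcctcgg

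**Figure D4:**
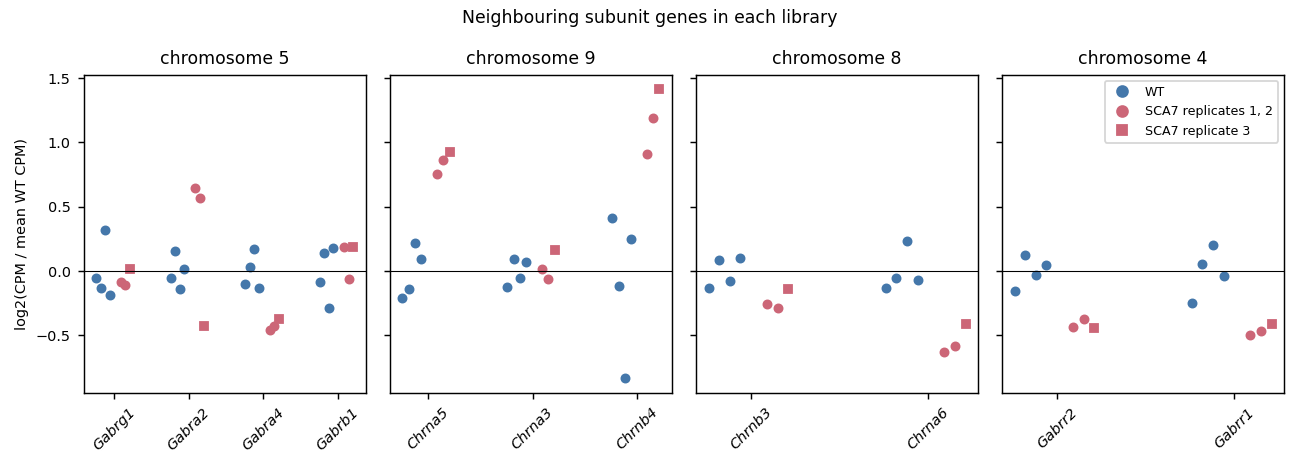
Log2 ratio of each library's CPM to the WT mean for neighbouring members on chromosomes 5, 9, 8 and 4, with WT libraries in blue and SCA7 libraries in red (square for replicate 3). Chrna5 and Chrnb4 lie above 0 in all 3 SCA7 libraries while Chrna3 between them lies near 0, Gabrr2 and Gabrr1 lie together below 0, and Gabra2 is split.

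Of the other nicotinic genes, only Chrnb2 passed the test. This gene, for the most abundant beta subunit, was at 65.4, 71.4, 68.8 and 79.9 CPM in WT replicates 1 to 4 and 86.6, 80.0 and 87.4 CPM in SCA7 replicates 1 to 3. The lowest SCA7 library was barely above the highest WT library, at log2 fold change 0.25 (SE 0.072, adjusted p = 0.0237), and the call was lost in 4 of 7 fits without a library (WT replicate 1 or 2 or SCA7 replicate 1 or 3, adjusted p up to 0.1004). Of its exon bases, 16.3% overlap Adar on the opposite strand, a gene with 5079 to 7716 counts in WT (log2 fold change 0.15, adjusted p = 0.112), and the strand setting of the counting is not given in the sources used here, so their reads may not be fully separated. Chrna4 (0.083) and Chrna7 (0.02) did not pass. Chrna2 was below WT in every SCA7 library (4.05 to 4.27 CPM in WT and 3.12 to 3.83 CPM in SCA7), at log2 fold change -0.25 (SE 0.11, adjusted p = 0.110). The muscle subunits Chrna1, on 6 to 17 counts per library, and Chrnb1 (-0.31) were not called.

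Among the families, the median log2 fold change was -0.015 for AMPA, 0.14 for kainate, -0.04 for NMDA and -0.035 for glycine. It was 0.0078 for GABA-A alpha, 0.04 for the beta, gamma and delta subunits, 0.043 for nicotinic alpha and 0.0093 for nicotinic beta. The rho median of -0.42 was the farthest from that of all genes tested (-0.019), and it rests on 3 genes. No test of a family against other genes was made. Summed RPK over all glutamate receptor genes changed by -0.049%, with 10426 to 11703 in WT and 10403 to 11358 in SCA7.

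**Figure D5:**
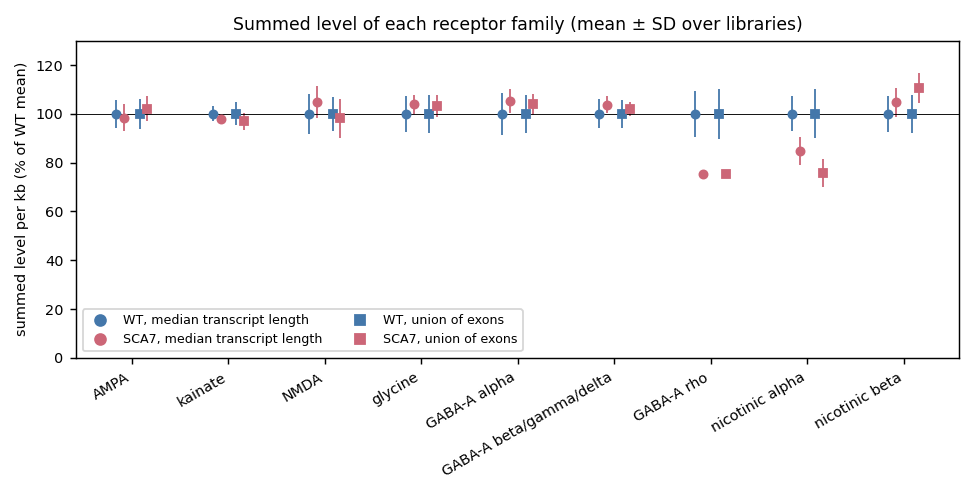
Summed level per kb of each receptor family as a percent of its WT mean, with SD bars over WT (blue, n = 4) and SCA7 (red, n = 3) libraries, circles per median transcript and squares per union of exons. The rho family lies 24.6% below WT under the first length and 24.7% below under the second, nicotinic alpha 15.2% and 24.2% below, and the other families within 10.6% of WT.

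Ratios of counts between subunits within a library do not depend on the scaling, and 7 were compared by exact two-sided permutation of the genotypes (35 arrangements, with 0.0286 the lowest p they allow). None passed after Benjamini-Hochberg adjustment over the 7, and 6 are given here. A single ratio at that lowest p would have an adjusted p of 0.200, so none could have passed alone. The difference of the mean log2 ratio was -0.99 (exact p = 0.0571, adjusted p = 0.200) for Chrnb2 to Chrnb4 and -0.17 (exact p = 0.0571, adjusted p = 0.200) for Gria2 to the sum of Gria1, Gria3 and Gria4. For Glra1 to Glra2 it was 0.41 (exact p = 0.114, adjusted p = 0.200), or 0.22 without WT replicate 3, and for Grin2a to Grin2b -0.18 (exact p = 0.114, adjusted p = 0.200). Gabrr1 to Gabrr2, at -0.035 (exact p = 0.971, adjusted p = 0.971), and Grik1 to Grik2, at 0.024 (exact p = 0.857, adjusted p = 0.971), were further from the threshold.

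Other genes of the same synapses were taken from 4 lists of 103 genes, of which 95 were tested. Over the lists 3 genes were downregulated and 3 upregulated, beside 7.91% and 7.47% of all genes tested. Without the FC threshold 18 were lower and 6 higher, beside 14.2% of all genes tested in each direction. With total counts as the scale, 9 list genes were lower and 32 higher, beside 7.43% and 36.2% of all genes tested. By the FC thresholds 1 was then downregulated and 9 upregulated, beside 4.86% and 18.3% of all genes tested. Of the 28 tested auxiliary subunits and receptor partners, 4 were lower and 2 higher, beside the same 14.2% in each direction. Neto1, an auxiliary subunit of kainate receptors, fell (3.81 to 5.05 CPM in WT and 2.23 to 2.94 CPM in SCA7), at log2 fold change -0.67 (SE 0.14, adjusted p = 0.00378). Olfm2, a protein associated with AMPA receptors, rose (14.1 to 16.3 CPM in WT and 24.1 to 25.8 CPM in SCA7), at log2 fold change 0.68 (SE 0.069, adjusted p = 1.98e-05), as did Gabbr1, a subunit of the metabotropic GABA receptor, by 0.32 (adjusted p = 0.00294).

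Of the 28 tested postsynaptic scaffolds and adhesion genes, 6 were lower and 1 higher, beside 14.2% of all genes tested in each direction. Nptx1, a secreted pentraxin that gathers AMPA receptors, fell by 0.50 on the log2 scale (adjusted p = 0.000215) and the scaffold gene Shank1 by 0.49 (adjusted p = 0.00143), while the adhesion gene Nlgn3 rose by 0.34 (adjusted p = 0.0321). Of the 13 tested genes in the list of metabotropic receptors, which leaves Gabbr1 and Gabbr2 to the auxiliary list, 4 were lower and 0 higher (14.2% each over all genes tested), with Grm4 at log2 fold change -0.60 (SE 0.094, adjusted p = 0.000587) and Chrm4 at log2 fold change -0.49 (SE 0.16, adjusted p = 0.0386). With edgeR at an unadjusted p under 0.05, 1 was higher, and with DESeq2 and limma-voom after adjustment 0 were.

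Of the 26 tested genes of transmitter synthesis, transport and breakdown, 4 were lower and 3 higher, near the 14.2% of all genes tested in each direction. Slc1a1 and Slc1a2, which encode glutamate transporters, rose by 0.55 (adjusted p = 0.000115) and 0.42 (adjusted p = 0.00483), and the chloride importer gene Slc12a2 by 0.20 (adjusted p = 0.0161). The GABA transporter gene Slc6a13 was at 23.9, 5.87, 5.94 and 8.58 CPM in WT replicates 1 to 4 and 2.18, 1.92 and 1.08 CPM in SCA7 replicates 1 to 3, with WT replicate 1 far above the others, at log2 fold change -2.70 (SE 0.71, adjusted p = 0.0419).

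Marker levels of retinal cell types moved with genotype, and their part in the values of the receptor genes was not tested. Of all genes tested, 14.2% were called lower and 14.2% higher, and the counts for ganglion and horizontal cell markers lay near that share. Summed over 10 rod markers, the level was 67900 to 70117 CPM in WT and 19106 to 24515 CPM in SCA7, and all 10 were lower. Of 11 cone markers 10 were lower and 1 higher (1793 to 2083 against 860.4 to 907.7 CPM). Bipolar cell markers, whose cells are known to use rho subunits, had 9 of 14 lower (1131 to 1319 against 1016 to 1064 CPM), and amacrine markers 7 of 14 (1197 to 1383 against 1015 to 1102 CPM). Ganglion cell markers had 2 of 12 lower (1058 to 1289 against 987.7 to 1065 CPM), and 11 of the 12 had a log2 fold change below 0. Horizontal cell markers had 1 of 5 lower (111.0 to 116.1 against 92.3 to 92.7 CPM), with 3 below 0 and 2 above 0. The median log2 fold change was -0.31 for bipolar, -0.25 for amacrine and -0.11 for ganglion cell markers, beside -0.42 for the rho genes and -0.54 for Chrna6. Grm6, Gad1 and Slc6a9 stand both in a synapse list and in a marker list.

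Microglia and reactive glia markers were higher in SCA7, beside the higher Grik3, Chrna5 and Chrnb4, and other marker lists were mixed. All 12 microglia markers were higher (97.01 to 120.3 against 215.3 to 241.3 CPM), as were 10 of 11 reactive glia markers (304.8 to 332.1 against 778.9 to 905.3 CPM), 7 of 11 endothelium and pericyte markers with 1 lower (318.8 to 363.7 against 421.2 to 469.2 CPM), and 6 of 11 Müller glia markers with 1 lower (5416 to 6228 against 5529 to 5843 CPM). Retinal pigment epithelium markers had 4 of 10 lower (94.9 to 187.5 against 29.6 to 69.3 CPM). Of the 9 tested lens markers, 0 were called by edgeR, DESeq2 or limma-voom and 0 reached an unadjusted p under 0.05, with sums of 43.2 to 552.4 CPM in WT and 33.7 to 932.4 CPM in SCA7. Of 8 oligodendrocyte markers, 5 were tested and 2 of these were higher (sums of 49.8 to 54.2 against 77.0 to 88.8 CPM), and Mog and Olig2 had 0 counts in every library.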

How the data were processed

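Total RNA-seq of 7 mouse retina samples (4 WT, 3 SCA7_KI_homo) was analysed, grouped by the labels. The authors depleted ribosomal RNA, made stranded libraries, mapped single reads to mm10 with TopHat2 2.0.14 and Bowtie2 2.1.0, and counted them per gene with HTSeq 0.6.1 (its mode and strand option are not given in the sources used here). The deposited values are raw counts, without normalization, for 52550 genes. Total counts per library were 56497675 to 96635832, so that 1 count was 0.00972 to 0.0188 CPM.

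Genes were filtered with filterByExpr of edgeR 4.0.16 (R 4.3.3), scaled with TMM factors, fitted by robust glmQLFit with genotype as the sole term and tested by quasi-likelihood F-test. The p-values of all 20128 genes were adjusted together (Benjamini-Hochberg). Fold changes are SCA7 over WT, with |log2 fold change| divided by the root of F as standard error. RPK used DESeq2 1.42.0 size factors and transcript lengths of GENCODE M21 (GRCm38), which named 52403 of the genes. Each library comes from a different mouse, so the spread is between animals. Alternatives were other scalings, DESeq2, limma-voom (limma 3.58.1), other filters, a replicate block, Xist as a covariate, an adjusted p of 0.01 and each library left out. The fits were tested on simulated counts. The members and the gene lists were chosen with earlier results of these data known. Library values are given for members past both thresholds, the highest member of a family where it is reported here, and the shared subunits Gria2, Grin1 and Glrb. They are also given for other members called by adjusted p alone, and for Gabra2, Gabrb2 and Chrna3, which met none of these criteria. Of the synapse lists, the called genes with the largest changes are named, at most 6 in each direction. Promoter windows of 36 of the 50 members were in the RefSeq table (GRCm38.p6), and protein sequences were not used here. The counts and family values cover all tested members, of which 3 are not reported here by name.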

Additional observations from a re-analysis of the deposited data

Results flagged for a closer look

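In the WT group of 4, the highest and lowest libraries of each of the 47 tested members were compared with the others by Dixon's ratio of the gap to the range, and 1 member exceeded its critical value for 4 samples. Grin2c was at 2.09 CPM in WT replicate 4, while the other WT libraries were at 1.69 CPM or less, which gives a ratio of 0.860. Chance alone exceeds this limit in about 1 of 20 groups. Grin2c was not called between the genotypes, with a log2 fold change of -0.16 (adjusted p = 0.436 in edgeR).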

How the results depend on the processing

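Scaling by total counts raised the median of all genes by 0.19 and gave 0 downregulated, 4 lower and 15 higher members. In the synapse lists it gave 1 downregulated, 9 upregulated, 9 lower and 32 higher genes, beside 4.86%, 18.3%, 7.43% and 36.2% of all genes tested. The family medians were then 0.17 for AMPA, 0.32 for kainate, 0.15 for NMDA, 0.16 for glycine, 0.20 for GABA-A alpha, 0.23 for GABA-A beta, gamma and delta, -0.23 for rho, 0.23 for nicotinic alpha and 0.20 for nicotinic beta, and Gria2 turned to 0.065 and Grik1 to 0.0018. Total-count scaling leaves out the TMM factors, which were 0.890 to 0.974 in WT and 1.065 to 1.090 in SCA7. These differ between the genotypes and also within each, so the spread between libraries can change too. At an adjusted p under 0.01, 4 members were lower and 3 higher.

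Leaving out each library in turn, 0 to 2 members were downregulated, 3 to 5 upregulated, 4 to 9 lower and 3 to 7 higher, and in the synapse lists 2 to 5 were downregulated, 2 to 4 upregulated, 13 to 21 lower and 4 to 9 higher. Grin1, near 0, ranged from -0.052 to 0.077. The kainate median ranged from 0.099 to 0.16, the NMDA median from -0.20 to 0.039 and the rho median from -0.47 to -0.37. The ratio difference of Gabrr1 to Gabrr2 ranged from -0.073 to 0.043, that of Grik1 to Grik2 from -0.050 to 0.096, that of Glra1 to Glra2 from 0.22 to 0.56, that of Grin2a to Grin2b from -0.22 to -0.13, that of Gria2 to the other AMPA genes from -0.21 to -0.11 and that of Chrnb2 to Chrnb4 from -1.19 to -0.75. The cause was not tested.

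Grin1 was at -0.00035 with at least 10 counts in every library and at -0.017 with Xist as a covariate. The kainate median was 0.16 without a filter and 0.16 with Xist as a covariate, which gave 11 higher synapse genes. The cause was not tested.

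Replicate numbers are shared by the groups, but same-numbered libraries did not all deviate together (r = 0.0053, 0.20 and 0.089), so the numbers are not taken as pairs. The sample titles also carry close animal numbers for same-numbered libraries, but no label says what those numbers share. With the replicate block, 7 members were lower and 7 higher, of which 6 and 5 were among those called without it (Grik1 and Chrnb3 were lost), 13 synapse genes were higher, and the kainate median was 0.16.

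Per union of exons the median WT RPK was 497.1 for AMPA, 116.1 for kainate, 45.7 for NMDA, 476.1 for glycine, 153.4 for GABA-A alpha, 384.1 for beta, gamma and delta, 1645 for rho, 75.2 for nicotinic alpha and 148.3 for nicotinic beta, since longer lengths give lower values. For counts of called members, 50 of 64 alternative values were within 1.5 times the count given. Members at under 40 counts per library (Chrna1, Grin3b) could show only large differences at this depth.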
